A study of Saccharomyces cerevisiae with 28 samples.

Results

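The response to growth medium was measured in H3H113N yeast cells, by setting 2 libraries from YPEG medium against 3 libraries from SC medium, across all open reading frames (ORFs). These 5 libraries were chosen from the 28 of the series by their labelled genotype and medium, and the 5 wild-type (WT) libraries from the same media, 2 from YPEG and 3 from SC, served for comparison. All cells were Saccharomyces cerevisiae BY4741, a haploid S288C strain of mating type a. H3H113N is an allele of histone H3 with asparagine in place of histidine, and it was present in both media groups. The labels do not say which H3 gene copies carry the allele, and read counts cannot show it. YPEG is a rich medium of yeast extract and peptone with ethanol and glycerol as carbon sources, and SC is synthetic complete medium, usually made with glucose. The H3H113N-YPEG cultures were inoculated at an OD600 of 0.2 and grew for 3 to 4 doublings, while the H3H113N-SC cultures were inoculated at 0.05 and grew for 5 doublings. All were labelled exponential, and the growth notes say that culture times often differed. The WT cultures were grown in the same way in each medium. Poly(A)+ RNA libraries of all 10 samples were made with the same kit on the NeoPrep instrument. Carbon source, richness of the medium and growth history differed together between the media groups and cannot be told apart.

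Yeast that ferments glucose represses respiration, the glyoxylate cycle and gluconeogenesis. On ethanol and glycerol the cell draws energy from the mitochondrial respiratory chain and must build sugar phosphates from small carbon units. The Snf1 kinase and the activators Cat8, Sip4, Adr1 and Hap4 are known for switching on the genes this needs, while Mig-family repressors act in glucose. The respiratory chain needs copper and heme, and siderophores and cell-surface transporters supply iron.

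The H3H113N-YPEG libraries held 4557714 and 2000506 counted reads, and the H3H113N-SC libraries 2576622, 1168159 and 1665813. Log-scale profiles of the YPEG libraries correlated with each other at 0.978, and those of the SC libraries at 0.93 to 0.966. SC replicate 3 lay nearest to the YPEG libraries, with 0.917 and 0.935, against 0.856 to 0.904 for the other SC libraries. Chromosomes II and V stood apart from WT in H3H113N, and chromosome III did so in SC. Set against WT of the same medium, the median log2 deviation of the 326 ORFs of chromosome V was 0.555 and 0.499 in the YPEG libraries, and 0.154, 0.583 and 0.676 in the SC libraries, so SC replicate 1 lay nearest to WT. On chromosome II, with 459 ORFs, it was 0.251 and 0.345 in the YPEG libraries, and 0.533, 0.432 and 0.463 in the SC libraries. On chromosome III, with 179 ORFs, it was 0.073 and 0.089 in the YPEG libraries, and 0.179, 0.23 and 0.225 in the SC libraries. The 6 MATa markers were above 0 in every library and together took 0.052% and 0.05% of reads in YPEG, against 0.204%, 0.133% and 0.086% in SC. The 4 MATalpha markers took 0.011% to 0.013% and the 10 meiotic markers 0.018% to 0.028% of reads in all 5 libraries. LEU2, MET17 and URA3, which BY4741 lacks, had 0 counts in all 5. They belong to a list of 4 genes deleted wholly or partly in BY4741. HIS3, the remaining member, had 183 and 102 reads in YPEG, and 198, 116 and 151 in SC.

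Expression was given as RPKM, which is reads per kilobase of ORF scaled to the counted reads of the library, and fold changes as log2 of YPEG over SC with a standard error (SE) from edgeR, called at an adjusted p under 0.05. Of 6592 ORFs tested, 720 were called (10.9%), 404 of them higher in YPEG (6.13%) and 316 lower (4.79%). Counts of calls in the gene lists below are to be read beside these shares, and no list was tested as a whole. The rises were larger than the falls. At least 4-fold changes numbered 131 rises and 20 falls, and at least 16-fold changes 15 rises and 2 falls. RPKM ranges of the YPEG and SC libraries did not overlap in 44.9% of all ORFs and in 718 of the 720 called. The median log2 fold change of all ORFs was -0.05. With each chromosome centred, 705 ORFs were called, 651 of them among the 720. Each YPEG library weighed heavily. Without YPEG replicate 1, 121 ORFs were called (107 higher, 14 lower), and without YPEG replicate 2, 382. Without SC replicate 1 the count was 465, and without SC replicate 2 it was 319. The spread was estimated from 26 libraries in 12 groups, which also include other strains, other media and another kit. With only the NeoPrep libraries 298 ORFs were called, and with only the 5 H3H113N libraries compared here 554. In bulk RNA a change in every cell and a change in the share of cells that express a gene cannot be told apart. Nothing in the labels says that the libraries came from separate clones or cultures, so p-values measure the spread between the libraries fitted.

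**Figure D1:**
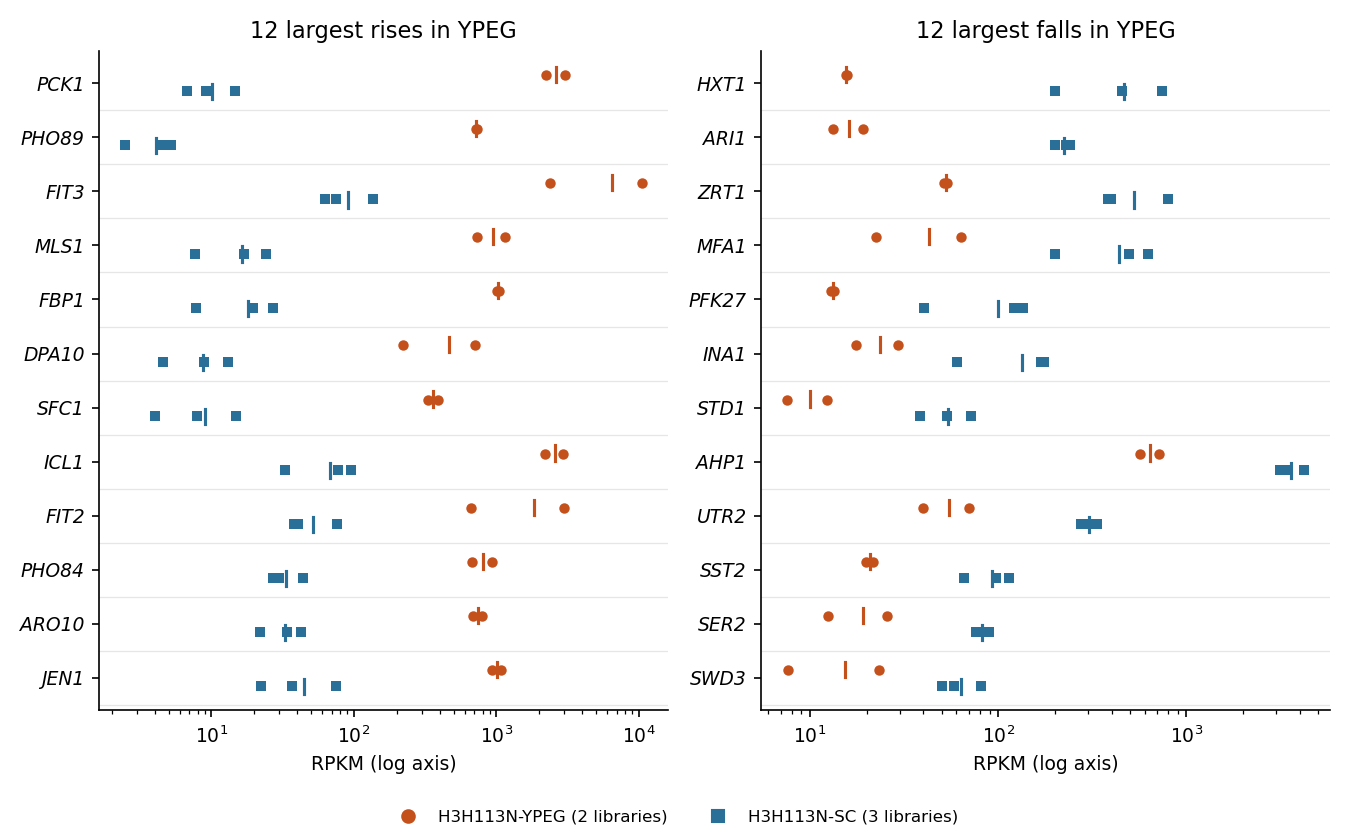
RPKM of the 12 genes with the largest rise and the 12 with the largest fall, on a log axis, in the 2 H3H113N-YPEG libraries (circles) and the 3 H3H113N-SC libraries (squares); ticks are group means. No gene shown has overlapping groups, since the choice required it, and the YPEG values of FIT3 lie apart, at 10520 and 2377 RPKM.

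Glyoxylate cycle and gluconeogenesis genes had the highest median of all lists, with 8 of 11 members higher, 0 lower and a median log2 fold change of 4.12, beside -0.05 for all ORFs. These pathways make sugar phosphates from acetyl-CoA. PCK1 (YKR097W, chromosome XI, start 631152) encodes phosphoenolpyruvate carboxykinase, which commits carbon to gluconeogenesis. It had 3018 and 2220 RPKM in YPEG, against 9.17, 6.74 and 14.6 RPKM in SC. PCK1 was nearly silent in every SC library and was 254-fold higher in YPEG (log2 7.99, SE 0.42, adjusted p 1.39e-09). FBP1 encodes fructose-1,6-bisphosphatase, which acts near the end of gluconeogenesis, and had 1047 and 1007 RPKM in YPEG, against 7.78, 19.6 and 26.9 in SC (log2 5.87, SE 0.43, adjusted p 1.51e-07). ICL1 and MLS1 encode isocitrate lyase and malate synthase, the enzymes that are specific to the glyoxylate cycle. ICL1 had 2938 and 2178 RPKM in YPEG, against 32.7, 95.6 and 77.1 in SC (log2 5.28, SE 0.40). MLS1 had 1153 and 731 RPKM in YPEG, against 7.69, 17 and 24.2 in SC (log2 5.90, SE 0.54). Both were high in each YPEG library and low in each SC library. ICL1 lies on chromosome V, where SC replicate 1 stood apart from the other H3H113N libraries. SFC1, the carrier that exchanges succinate for fumarate across the mitochondrial membrane, had 389 and 331 RPKM in YPEG, against 4.01, 7.95 and 14.9 in SC (log2 5.38, SE 0.47). IDP2, the cytosolic NADP-dependent isocitrate dehydrogenase, rose by 4.12 (SE 0.34). All 8 calls held whichever of the 5 libraries was left out. MDH2, CIT2 and MAE1 were not called, and for CIT2, a peroxisomal citrate synthase, the log2 fold change was 0.42 (adjusted p 0.526).

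The carbon source-responsive element is the sequence through which Cat8 and Sip4 act on these genes. Its core was searched on both strands of the 500 bases before each start codon in the RefSeq sequence of assembly R64. It was found before 7 of the 11 genes of the list (63.6%), namely ACS1, ICL1, IDP2, MDH2, MLS1, PCK1 and SFC1, and not before FBP1. It was found before 7.23% of 5944 ORFs. The stretches before PCK1 (chrXI:630652-630840, plus strand) and SFC1 (chrX:609273-609332, plus strand) are shown because these genes were among the largest rises, and capitals mark the matches on either strand.
PCK1: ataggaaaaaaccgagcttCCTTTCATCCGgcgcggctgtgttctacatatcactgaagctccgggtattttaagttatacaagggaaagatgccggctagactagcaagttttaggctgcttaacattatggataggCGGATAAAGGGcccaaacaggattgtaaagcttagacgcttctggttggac
SFC1: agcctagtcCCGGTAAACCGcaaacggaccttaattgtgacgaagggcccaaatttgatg

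Among 19 regulators of the response to carbon source, 4 rose and 1 fell. SIP4 had 58.5 and 52.2 RPKM in YPEG, against 6.23, 8.94 and 10.1 in SC, and rose by 2.74 on the log2 scale (SE 0.40, adjusted p 0.000301). CAT8 had 67.7 and 53.7 RPKM in YPEG, against 8.93, 12.1 and 21.9 in SC (log2 2.10, SE 0.66, adjusted p 0.0495). ADR1, the activator of ADH2 and of fatty acid oxidation genes, rose by 1.86 (SE 0.54, adjusted p 0.0357). RTG1, of the mitochondria-to-nucleus retrograde pathway, rose by 0.88, and MIG3, a glucose repressor, fell by 1.59. HAP4, the inducible subunit of the activator of respiratory genes, had 444 and 285 RPKM in YPEG, against 241, 118 and 115 in SC. Its groups did not overlap, but the log2 fold change of 1.18 was not called (SE 0.58, adjusted p 0.19). Of the 5 calls, only SIP4 held when each library was left out in turn.

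The uptake and first steps of non-fermentable carbon use gave 6 of 12 genes higher, 0 lower and a median of 1.72. JEN1, the lactate and pyruvate permease, had 938 and 1073 RPKM in YPEG, against 22.4, 37 and 75.2 in SC (log2 4.50, SE 0.64, adjusted p 0.000254). ACS1, the acetyl-CoA synthetase active on ethanol and acetate, had 129 and 162 RPKM in YPEG, against 16.1, 19.6 and 35.3 in SC (log2 2.62, SE 0.34). STL1, a glycerol importer, rose by 2.68 (SE 0.30, adjusted p 2.47e-05), and GUT2, the mitochondrial glycerol-3-phosphate dehydrogenase, by 3.05 (SE 0.69, adjusted p 0.00901). In JEN1 and ACS1 both YPEG values lay above all SC values. ADH2, the alcohol dehydrogenase that oxidizes ethanol, had 1997 and 1920 RPKM in YPEG, against 711, 564 and 1078 in SC. Its rise of 1.31 (SE 0.36, adjusted p 0.0277) was small beside those genes, and 86.0% of its 50-nt windows are unique, so reads shared with ADH1 may enter. This list had 3 calls without YPEG replicate 1 or SC replicate 2 and 4 without YPEG replicate 2 or SC replicate 1, and ADH2 lost its call in all 4 cases. In the list for fermentation, 2 of 13 were higher and 0 lower, beside 6.13% and 4.79% of all ORFs. The 2 that rose were ADH3, the mitochondrial alcohol dehydrogenase, by 0.98, and PDC6, a minor pyruvate decarboxylase, by 1.54. Both calls were lost when any library other than SC replicate 3 was left out, with only the NeoPrep libraries and with library totals only. ADH1, the main fermentative enzyme, had 4164 and 3967 RPKM in YPEG, against 5096, 4038 and 7934 in SC, and PDC1, the main pyruvate decarboxylase, had 2175 and 2078 in YPEG, against 6619, 3703 and 3373 in SC. The log2 fold changes of ADH1 (-0.49, adjusted p 0.418) and PDC1 (-1.14, adjusted p 0.0911) were not called.

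The nuclear genes of the respiratory chain rose almost without exception. All 9 genes of the bc1 complex (complex III) and all 14 of the ATP synthase were higher, as were 8 of 9 of cytochrome c oxidase, with medians of 2.32, 1.98 and 2.47 on the log2 scale. COX26, singled out after its values were seen, was the exception and had 109 and 37.3 RPKM in YPEG, against 7.72, 0 and 11.9 in SC (adjusted p 0.0797). COX4, a nuclear-encoded subunit of the oxidase, had 498 and 509 RPKM in YPEG, against 86.2, 106 and 127 in SC (log2 2.25, SE 0.32, adjusted p 0.000255). QCR10, a small bc1 subunit, had 1233 and 1015 RPKM in YPEG, against 87.9, 106 and 154 in SC (log2 3.29, SE 0.45, adjusted p 0.000185). ATP14, of the ATP synthase stator, had 1194 and 929 RPKM in YPEG, against 141, 146 and 170 in SC (log2 2.80, SE 0.39). In COX4, QCR10 and ATP14 both YPEG libraries lay above all SC libraries. Together the ATP synthase list took 1.413% and 1.327% of reads in YPEG, against 0.325%, 0.314% and 0.433% in SC. Without YPEG replicate 1, calls fell to 3 of the bc1 genes, 7 of the oxidase genes and 11 of the ATP synthase genes, and without SC replicate 2 to 6 of the bc1 genes.

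The oxidase holds its copper and heme in subunits made inside the mitochondrion, whose transcripts poly(A) selection largely misses. Of 8 mitochondrial ORFs in the list used here, 2 passed the filter, and 0 were called by edgeR or DESeq2 or had an unadjusted p under 0.05. The other 6 of the list had at most 3 counts in any H3H113N library. Over the whole mitochondrial genome, 8 ORFs passed the filter, and edgeR called 0 of them. Of 10 genes that carry copper to the oxidase, COX19 alone was called (log2 1.30, SE 0.40, adjusted p 0.0449). Its call was lost when any library other than SC replicate 3 was left out and with only the NeoPrep libraries, and DESeq2 called 2 genes of this list. The oxidase has alternative forms of subunit 5, and cytochrome c has alternative forms too. COX5A, the aerobic form, had 1153 and 1024 RPKM in YPEG, against 91.6, 163 and 226 in SC, and rose by 2.79 (SE 0.42, adjusted p 0.000374). COX5B, the hypoxic form, had 24.1 and 24.1 RPKM in YPEG, against 37.4, 97.6 and 284 in SC, and its log2 fold change of -2.50 was not called (SE 0.94, adjusted p 0.0934). Likewise CYC1, the main cytochrome c, rose by 2.38 (SE 0.46, adjusted p 0.00327). CYC7, the hypoxic cytochrome c, had 52 and 29.2 RPKM in YPEG, against 30.6, 15 and 153 in SC. Both hypoxic forms were highest in SC replicate 3, and the sign for CYC7 turned without that library (log2 0.74, against -0.67 with it).

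The complex that binds the sequence CCAATNA is formed by the Hap2, Hap3, Hap4 and Hap5 proteins and is known for driving respiratory genes. On either strand of the 500 bases before the start codon, CCAATNA was found in all 14 ATP synthase genes, 7 of 9 oxidase genes and 6 of 9 bc1 genes, and in 24.2% of 5944 ORFs. A stretch before QCR10 (chrVIII:107587-107673, plus strand) is shown because QCR10 had the largest rise of the bc1 genes, with the match in capitals.
QCR10: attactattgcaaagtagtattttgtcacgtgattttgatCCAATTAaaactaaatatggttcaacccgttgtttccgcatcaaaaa

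Dehydrogenases that feed the chain, with cytochrome c, gave 9 of 11 higher and a median of 2.56, and the citric acid cycle 12 of 15 higher and a median of 2.25, with 0 lower in each. SDH2, the iron-sulfur subunit of succinate dehydrogenase, had 871 and 1068 RPKM in YPEG, against 109, 87.6 and 183 in SC (log2 2.92, SE 0.61, adjusted p 0.00541). FUM1, fumarase, had 1170 and 960 RPKM in YPEG, against 172, 166 and 230 in SC (log2 2.49, SE 0.36, adjusted p 0.000254). PYC1, a pyruvate carboxylase that refills the cycle, had 770 and 955 RPKM in YPEG, against 79, 95.8 and 115 in SC (log2 3.16, SE 0.50). KGD1, of the 2-oxoglutarate dehydrogenase, rose by 2.61, and CIT1, the mitochondrial citrate synthase, by 2.28. As a share of reads, the cycle took 1.806% and 1.705% in YPEG, against 0.402%, 0.35% and 0.577% in SC. Citric acid cycle calls fell to 4 without YPEG replicate 1 and to 8 without SC replicate 2. Calls of the dehydrogenase list fell to 3 without YPEG replicate 1, to 4 without YPEG replicate 2, to 5 without SC replicate 1, to 3 without SC replicate 2 and to 4 with only the NeoPrep libraries.

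Peroxisomal fatty acid oxidation with its carnitine shuttle gave 8 of 18 higher, 0 lower and a median of 1.09. The carnitine genes led. YAT1, a carnitine acetyltransferase of the mitochondrion, had 168 and 76 RPKM in YPEG, against 14.5, 9.54 and 21.2 in SC (log2 3.01, SE 0.46, adjusted p 0.0004). YAT2 had 175 and 219 RPKM in YPEG, against 26.6, 63.3 and 56.5 in SC (log2 2.05, SE 0.26), and the carnitine carrier CRC1 rose by 2.90 (SE 0.62). CTA1, the peroxisomal catalase, rose by 1.85 (SE 0.34, adjusted p 0.00194). Of 71 mitochondrial ribosomal proteins, 13 were higher and 0 lower, with a median of 0.57, and RSM23 had the largest called change, with 130 and 108 RPKM in YPEG, against 43.9, 58.8 and 54.1 in SC (log2 1.20, SE 0.20, adjusted p 0.00103). That count was 1 without YPEG replicate 1, 3 without YPEG replicate 2, 3 without SC replicate 1 and 4 without SC replicate 2, and it was 8 with each chromosome centred, 4 with library totals only, 6 with limma, 4 with only the NeoPrep libraries, 5 with only the groups compared and 23 with DESeq2. The oxidation count was 5 without either YPEG library.

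**Figure D2:**
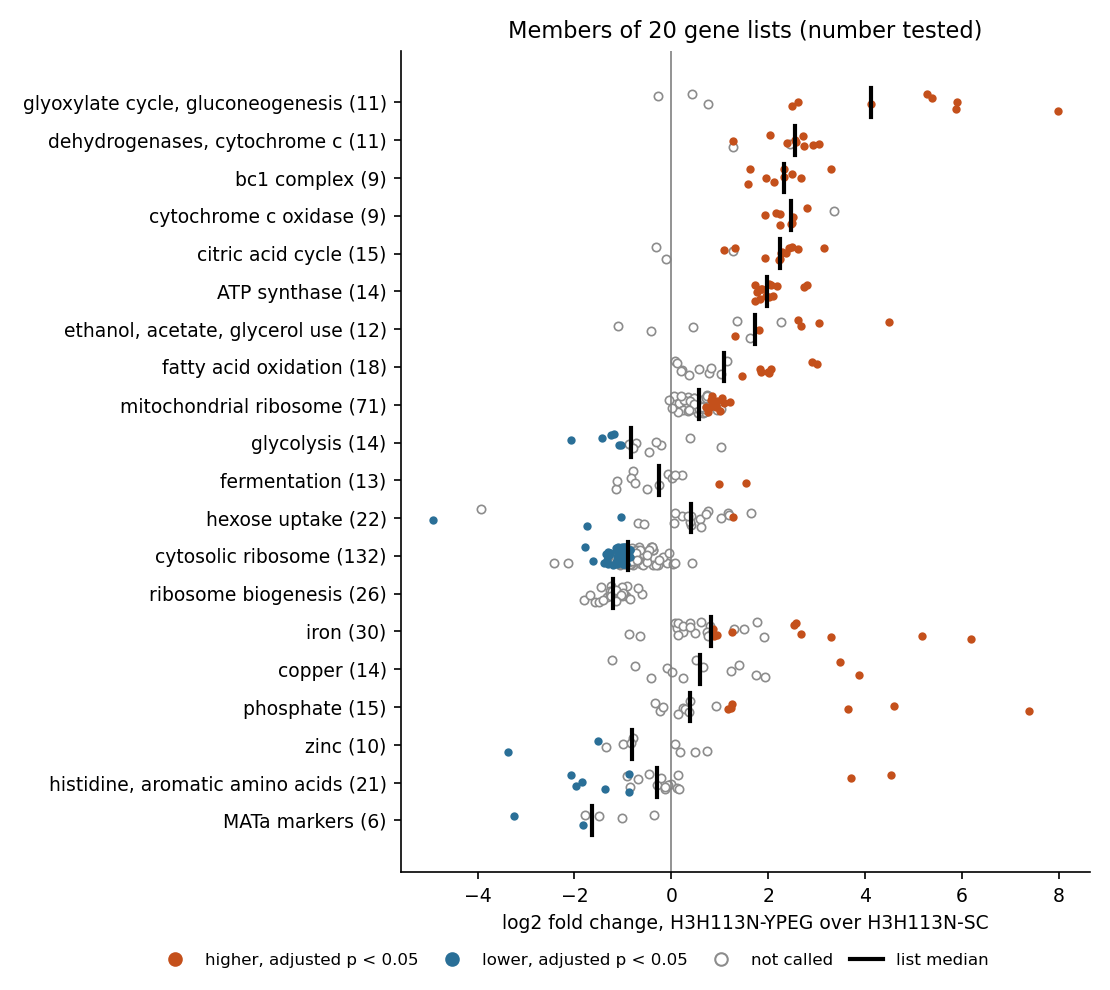
Log2 fold change of H3H113N-YPEG over H3H113N-SC for every tested member of 20 gene lists (number in brackets; vertical jitter only separates points), with the list median as a bar. The medians of the respiratory and glyoxylate lists lie to the right of 0, between 1.98 and 4.12. Those of the glycolysis and cytosolic ribosome lists lie to the left, at -0.83 and -0.90. Some members lie across 0, down to -0.31 in the citric acid cycle and -0.28 in the glyoxylate list, and up to 1.02 in glycolysis and 0.43 in the cytosolic ribosome.

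Among 14 glycolytic genes 6 fell and 0 rose, with a median of -0.83. ENO2, the glucose-induced enolase, had 1233 and 891 RPKM in YPEG, against 6160, 3274 and 3776 in SC (log2 -2.08, SE 0.38, adjusted p 0.0019). CDC19, the main pyruvate kinase, had 2123 and 1573 RPKM in YPEG, against 6639, 3355 and 4677 in SC (log2 -1.43, SE 0.36, adjusted p 0.0167). TPI1, PGK1, FBA1 and GPM1, which encode triose phosphate isomerase, phosphoglycerate kinase, aldolase and phosphoglycerate mutase, fell by 1.24, 1.19, 1.08 and 1.03. Their transcripts remained abundant, and FBA1 had 4080 and 3893 RPKM in YPEG, against 9452, 5980 and 9414 in SC. Only 76.4% of the windows of ENO2 are unique. ENO2 alone kept its call whichever library was left out, and the list's count was 1 without YPEG replicate 1, 1 without YPEG replicate 2, 2 without SC replicate 1, 1 with only the NeoPrep libraries and 1 with only the groups compared. In the pentose phosphate pathway 2 of 11 fell, beside 4.79% of all ORFs. These were GND1, 6-phosphogluconate dehydrogenase, by 1.93 (SE 0.35) and SOL3, 6-phosphogluconolactonase, by 1.27 (SE 0.30). Both calls were lost without YPEG replicate 1. TAL1, the transaldolase, had 276 and 280 RPKM in YPEG, against 211, 180 and 223 in SC, and was not called (log2 0.43, adjusted p 0.24).

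Sugar uptake and its sensing held the largest fall. HXT1 (YHR094C, chromosome VIII, start 290913), the low-affinity glucose transporter induced by high glucose, had 15.5 and 15.8 RPKM in YPEG, against 740, 454 and 201 in SC. Its level was 30.5-fold lower in YPEG (log2 -4.93, SE 0.78, adjusted p 0.000639). HXT3, another low-affinity transporter, had 289 and 524 RPKM in YPEG, against 1419, 1347 and 1277 in SC (log2 -1.75, SE 0.44, adjusted p 0.017), and 85.1% of its windows are unique. HXK2, the hexokinase of glucose repression, fell by 1.05 (SE 0.33, adjusted p 0.0477). In this list of 22 genes 3 were lower and 1, HXT5, was higher, against 1 lower and 0 higher without YPEG replicate 1. HXK2 was called only without SC replicate 2 among the fits that left out a library, and was not called with only the NeoPrep libraries or only the groups compared. Counts of rises were 3 without SC replicate 3 and 3 with DESeq2. PFK27, which makes the activator of phosphofructokinase, had 13.4 and 13 RPKM in YPEG, against 122, 136 and 40.2 in SC (log2 -2.90, SE 0.58). Its call was lost without YPEG replicate 1. STD1, which acts in glucose sensing, had 7.56 and 12.4 RPKM in YPEG, against 71.5, 53.2 and 38.2 in SC (log2 -2.52, SE 0.37). HXT1 and PFK27 shared an order within SC, in that replicate 3 was the lowest of the 3 libraries.

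HXT5 was the 1 ORF of 6592 (0.0152%) whose response differed between the H3H113N and WT strains. HXT5 (YHR096C, chromosome VIII, start 294669) encodes a hexose transporter known for expression in slow-growing and starved cells. It had 115 and 78.4 RPKM in H3H113N-YPEG, against 39.9, 45.2 and 35.4 in H3H113N-SC, and it had 29 and 22.7 in WT-YPEG, against 37, 61.4 and 40.8 in WT-SC. YPEG libraries lay above SC libraries in H3H113N and below them in WT. The log2 fold change was 1.28 in H3H113N (SE 0.22, adjusted p 0.00135) and -1.03 in WT (adjusted p 0.0074), and the difference was 2.31 (adjusted p 0.00783). The difference lost its call without H3H113N-YPEG replicate 1 (1.94, adjusted p 0.121), without WT-YPEG replicate 1 (2.44, adjusted p 0.0692) and without WT-YPEG replicate 2 (2.19, adjusted p 0.126). It was also lost with limma, with only the NeoPrep libraries and with only the groups compared (adjusted p 0.0756, 0.521 and 0.999). Without H3H113N-YPEG replicate 1 the rise in H3H113N itself was 0.91 (adjusted p 0.0828).

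**Figure D3:**
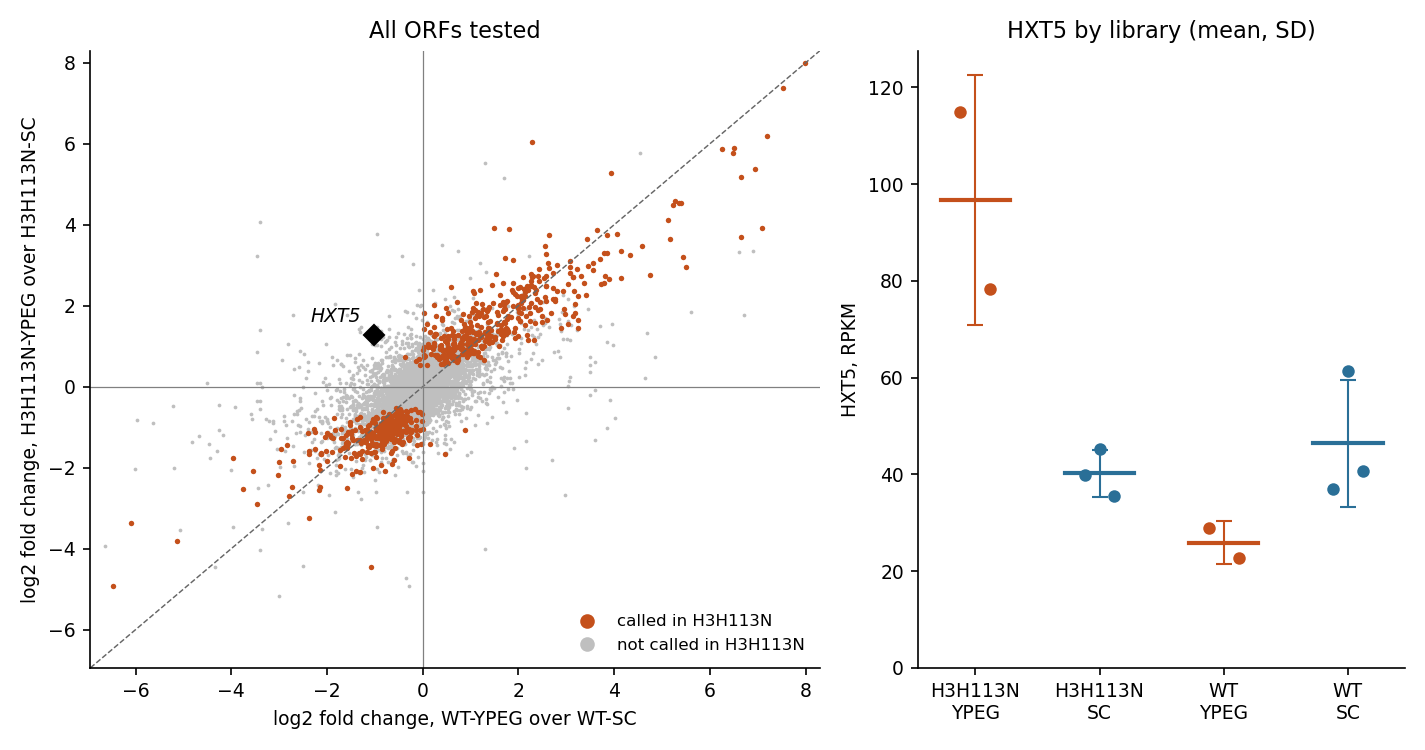
Left, log2 fold change of YPEG over SC for each ORF in H3H113N (vertical axis) and in WT (horizontal axis), with a dashed line of equality and HXT5 as a diamond. Right, HXT5 RPKM of each library with the group mean and SD, where H3H113N-YPEG lies at 115 and 78.4 and all other libraries lie at 61.4 or lower.

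Beyond HXT5, the tests of the difference gave 353 ORFs at an unadjusted p under 0.05, where chance alone would give 329.6 of 6592, and a missed threshold does not show that the strains respond alike. In WT, 756 ORFs (11.5%) were called, 445 higher (6.75%) and 311 lower (4.72%), or 619 higher and 183 lower when only library totals scaled the counts. The WT count was 410 with only the NeoPrep libraries, and 69 (54 higher, 15 lower) when only the 5 WT libraries were fitted, so the shares that follow rest on the fit of all groups. Of the 404 ORFs higher in H3H113N-YPEG, 266 were also higher in WT-YPEG, which is 65.8% of the H3H113N set and 59.8% of the WT set. Of the 316 lower in H3H113N-YPEG, 132 were called lower in WT-YPEG, which is 41.8% of the H3H113N set and 42.4% of the WT set. Whether called or not, the WT log2 fold change had the same sign for 398 of the 404 rises and 312 of the 316 falls. Over all ORFs tested, the log2 fold changes of the strains correlated at 0.69 (Pearson). FBP1 had a log2 fold change of 5.87 in H3H113N and 6.26 in WT, and PHO89 of 7.37 in H3H113N and 7.52 in WT. In glycolysis 6 of 14 fell in H3H113N and 11 in WT, with medians of -0.83 and -1.98, and no member passed the test of the difference. HXT3 was -1.75 in H3H113N and -3.96 in WT, with a difference of 2.21 that was not called (adjusted p 0.78).

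Of 132 cytosolic ribosomal protein genes, 42 fell and 0 rose, and the median log2 fold change was -0.90. The RPKM of YPEG lay below that of SC without overlap in 111, while 44.9% of all ORFs had no overlap, in either direction. RPL9A had 258 and 332 RPKM in YPEG, against 1121, 1303 and 617 in SC (log2 -1.78, SE 0.36, adjusted p 0.00411). RPS22A had 305 and 631 RPKM in YPEG, against 1466, 1871 and 933 in SC (log2 -1.62, SE 0.37, adjusted p 0.0102). SC replicate 3 was the lowest SC library for both. RPL14A and RPL14B, a pair of near-identical paralogs, fell by 1.33 and 1.39. The windows of RPL9A, RPL14A and RPL14B are 86.0%, 79.8% and 79.8% unique, so reads of paralogs may be shared. The 132 genes took 4.716% and 6.279% of reads in YPEG, against 9.373%, 11.216% and 7.929% in SC. The count of 42 was 0 without YPEG replicate 1, 9 without YPEG replicate 2, 13 without SC replicate 1, 7 without SC replicate 2 and 67 without SC replicate 3. It was 3 when only the NeoPrep libraries were fitted, 4 when only the groups compared were fitted and 74 with DESeq2. All 26 ribosome biogenesis genes, which build and process ribosomal RNA, had negative log2 fold changes with a median of -1.20, but 0 were called by edgeR, 11 had an unadjusted p under 0.05, DESeq2 called 4, and 12 did not overlap, a share near the 44.9% of all ORFs. They took 0.345% and 0.539% of reads in YPEG, against 1.303%, 1.227% and 0.512% in SC, so SC replicate 3 lay within the YPEG range.

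Of 30 iron genes 10 rose and 0 fell, with a median of 0.81. The FIT genes encode cell wall mannoproteins that hold iron-siderophore complexes. FIT3 (YOR383C, chromosome XV, start 1060441) had 10520 and 2377 RPKM in YPEG, against 62.5, 75.2 and 136 in SC (log2 6.18, SE 0.79, adjusted p 0.000102). FIT2 had 3002 and 662 RPKM in YPEG, against 37.8, 40.8 and 76.7 in SC (log2 5.18, SE 0.93, adjusted p 0.00176). Each gene was several-fold higher in YPEG replicate 1 than in YPEG replicate 2, and both replicates were above all SC libraries. The siderophore transporters shared that order of the YPEG libraries: ARN1 had 305 and 149 RPKM in YPEG, against 33.6, 47.3 and 39.5 in SC (log2 2.53, SE 0.57). ARN2 rose by 2.67 (SE 0.57), and SIT1, on chromosome V, by 2.56 (SE 0.79). TIS11, which promotes decay of mRNAs of iron-using proteins, had 271 and 107 RPKM in YPEG, against 12.2, 27.9 and 21 in SC (log2 3.30, SE 0.75). FET3, the multicopper ferroxidase that links iron uptake to copper, had 809 and 401 RPKM in YPEG, against 127, 200 and 165 in SC, and was not called (log2 1.92, SE 0.63, adjusted p 0.0549). The list took 1.465% and 0.602% of reads in YPEG, against 0.186%, 0.261% and 0.268% in SC. In WT it took 3.287% and 0.694% in YPEG, against 0.183%, 0.279% and 0.246% in SC, so YPEG replicate 1 was the higher in both strains. Without YPEG replicate 1, FIT3 was the 1 gene of the list still called (log2 4.66), and the list's count was 6 without SC replicate 2.

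The core site TGCACCC of the iron regulator Aft1 was found, on either strand of the 500 bases before the start codon, in 19 of 30 genes of the list (63.3%) and in 2.29% of 5944 ORFs. The stretch before FIT3 (chrXV:1061193-1061380, minus strand) is shown because FIT3 had the largest rise of the list, with both matches in capitals.
FIT3: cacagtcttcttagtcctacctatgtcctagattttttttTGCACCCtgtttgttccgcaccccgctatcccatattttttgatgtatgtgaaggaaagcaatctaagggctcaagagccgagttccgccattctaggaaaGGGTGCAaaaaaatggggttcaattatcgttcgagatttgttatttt

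Copper genes gave 2 of 14 higher, 0 lower and a median of 0.59, beside 6.13% higher and 4.79% lower of all ORFs. CTR1 (YPR124W, chromosome XVI, start 786208), which carries copper into the cell with high affinity, had 942 and 581 RPKM in YPEG, against 39.4, 52.6 and 65.4 in SC. It was 14.7-fold higher (log2 3.88, SE 0.57, adjusted p 0.00036). FRE7, a metalloreductase known for induction at low copper, had 128 and 102 RPKM in YPEG, against 7.29, 12.9 and 11.6 in SC (log2 3.49, SE 0.38, adjusted p 2.27e-05). Both calls held whichever library was left out, the list had 6 rises with only the groups compared, and both genes were called higher in WT as well, with log2 fold changes of 3.63 for CTR1 and 4.59 for FRE7. FRE1, the main surface reductase for copper and iron, had 166 and 124 RPKM in YPEG, against 40.7, 65.6 and 62 in SC. FRE1 was not called in H3H113N (log2 1.40, adjusted p 0.135) but was called in WT (3.23), and the difference of -1.84 was not called (adjusted p 0.93). CUP1-1, a copper-binding metallothionein, had 1403 and 462 RPKM in YPEG, against 219, 184 and 342 in SC, was not called (log2 1.93, adjusted p 0.153) and has no unique window. CCS1, which loads copper into SOD1, had 115 and 151 RPKM in YPEG, against 109, 121 and 162 in SC, and its groups overlapped (log2 0.02, SE 0.25). SOD1, the copper-zinc superoxide dismutase, had 1319 and 1329 RPKM in YPEG, against 1740, 1957 and 2951 in SC (log2 -0.74, adjusted p 0.149).

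TTTGCTC, the core site of the copper regulator Mac1, was found before 3 of 13 copper genes, CCS1, CTR1 and FRE1, and before 8.63% of 5944 ORFs. The stretch before CTR1 (chrXVI:785834-785943, plus strand) is shown because CTR1 rose most among the copper genes, with matches on either strand in capitals.
CTR1: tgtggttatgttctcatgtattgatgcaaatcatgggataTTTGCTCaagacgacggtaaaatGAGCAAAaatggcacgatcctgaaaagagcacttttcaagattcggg

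**Figure D4:**
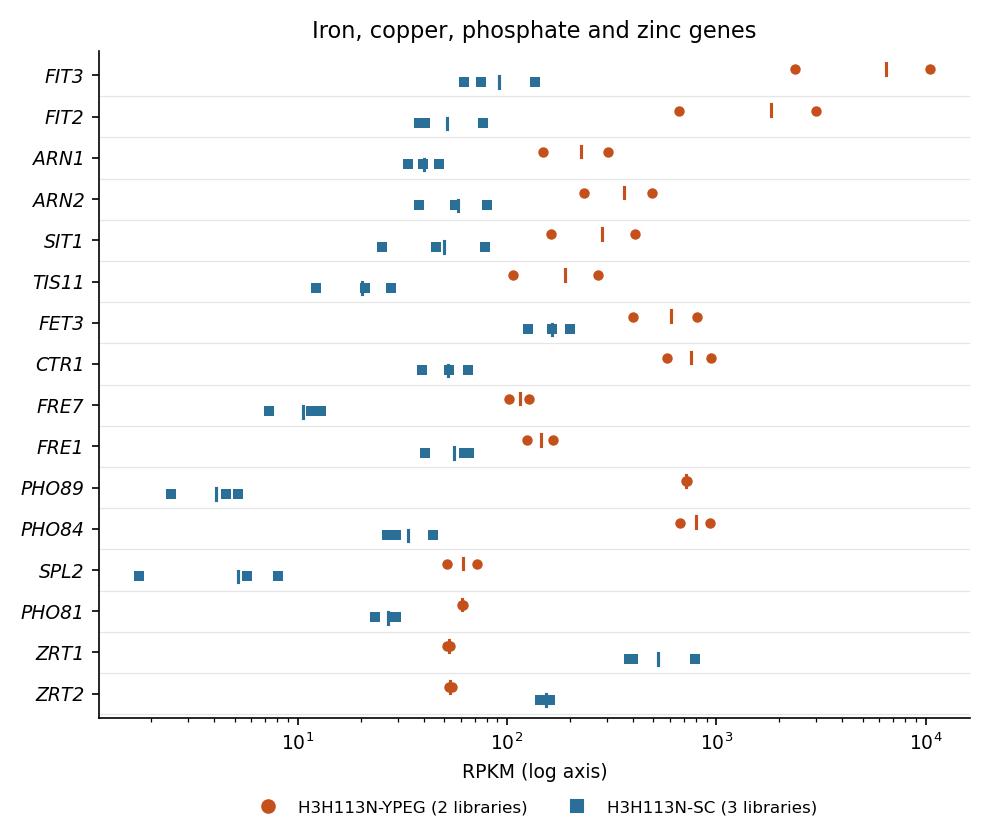
RPKM on a log axis of iron, copper, phosphate and zinc genes in the 2 H3H113N-YPEG libraries (circles) and the 3 H3H113N-SC libraries (squares), with ticks at group means. The iron genes spread between the YPEG libraries (FIT3 at 10520 and 2377 RPKM), the phosphate genes do so less (PHO89 at 715 and 726), and ZRT1 and ZRT2 lie lower in YPEG.

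Phosphate genes gave 6 of 15 higher, 0 lower and a median of 0.39. PHO89 (YBR296C, chromosome II, start 796798), a sodium-phosphate cotransporter, had 715 and 726 RPKM in YPEG, against 5.17, 2.48 and 4.52 in SC. It rose 166-fold (log2 7.37, SE 0.56, adjusted p 1.69e-07), the second-largest rise after PCK1 among the named genes. PHO84, the high-affinity proton-phosphate transporter, had 672 and 931 RPKM in YPEG, against 26.8, 44.2 and 29.6 in SC (log2 4.60, SE 0.59), and overlaps another annotated gene. SPL2, which acts on low-affinity phosphate transport, had 51.5 and 71.6 RPKM in YPEG, against 1.74, 5.75 and 8.06 in SC (log2 3.65, SE 0.59), where the SC libraries held 2, 3 and 6 reads. PHO81, the inhibitor of the Pho80-Pho85 kinase, had 61 and 61.6 RPKM in YPEG, against 28.3, 29.5 and 23.4 in SC (log2 1.17, SE 0.24). VTC3 and VTC1, of the polyphosphate polymerase complex, rose by 1.25 and 1.23. The list had 5 calls without SC replicate 1, and 4 without SC replicate 2 or without either YPEG library. PHO89, PHO84 and SPL2 kept their calls whichever library was left out. The YPEG libraries agreed for PHO89 and PHO81, unlike for the iron genes. The Pho4 site CACGTG, which reads the same on both strands, was found in the 500 bases before 13 of 15 genes of the list (86.7%) and before 6.22% of 5944 ORFs. The stretch before PHO89 (chrII:798800-798885, minus strand) is shown because PHO89 had the largest rise of the list, with the match in capitals.
PHO89: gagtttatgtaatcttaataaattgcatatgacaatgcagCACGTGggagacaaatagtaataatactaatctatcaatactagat

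Of 10 zinc genes 2 fell and 0 rose. ZRT1, the high-affinity zinc transporter, had 53.5 and 51.7 RPKM in YPEG, against 795, 384 and 399 in SC (log2 -3.36, SE 0.75, adjusted p 0.00822). ZRT2, the low-affinity transporter, had 54.5 and 52.8 RPKM in YPEG, against 143, 161 and 158 in SC (log2 -1.52, SE 0.30, adjusted p 0.00381). Neither call remained without YPEG replicate 1, and ZRT1 also lost its call without YPEG replicate 2.

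In the list of 21 histidine and aromatic amino acid genes 2 rose and 6 fell, and the median was -0.30. The 2 that rose, ARO9 and ARO10, act in the breakdown of aromatic amino acids. ARO10, the phenylpyruvate decarboxylase, had 795 and 687 RPKM in YPEG, against 22, 42.6 and 33.7 in SC (log2 4.54, SE 0.36, adjusted p 2.46e-07). ARO9, the aromatic aminotransferase, had 519 and 601 RPKM in YPEG, against 48.6, 52.7 and 26.5 in SC (log2 3.71, SE 0.52). HIS1 and HIS4 were among the 6 that fell. HIS1, on chromosome V, encodes the first enzyme of histidine synthesis and had 58.9 and 126 RPKM in YPEG, against 258, 493 and 336 in SC (log2 -1.97, SE 0.38, adjusted p 0.00331). HIS4 fell by 1.85 (SE 0.41), HIS7 by 1.36 and ARO7, chorismate mutase, by 2.08 (SE 0.43). The list's count of falls was 0 without YPEG replicate 1, 3 without YPEG replicate 2, 4 without SC replicate 1, 3 without SC replicate 2 and 3 with only the NeoPrep libraries, while ARO9 and ARO10 were called in every fit that left out a library. TGACTC, the site of the amino acid regulator Gcn4, was found before 11 of the 21 genes (52.4%) and before 12.7% of 5944 ORFs.

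Other amino acid pathways hardly met the threshold. Arginine (12 genes) and lysine (9 genes) each gave 0 calls by edgeR, with ARG1, argininosuccinate synthase, at 57.7 and 75.2 RPKM in YPEG, against 78.1, 75.9 and 75.6 in SC. LYS9, of lysine synthesis, had 173 and 215 RPKM in YPEG, against 101, 152 and 107 in SC (log2 0.71, adjusted p 0.205). At an unadjusted p under 0.05 there were 3 arginine genes (1 higher, 2 lower) and 4 lysine genes (3 higher, 1 lower), and DESeq2 called 2 lysine genes higher and 0 arginine genes. In sulfate assimilation and methionine synthesis, SAM2, S-adenosylmethionine synthetase, was the 1 call among 26 genes, with 97.6 and 133 RPKM in YPEG, against 296, 344 and 800 in SC (log2 -2.06, SE 0.42), and was not called without YPEG replicate 1. MET3, ATP sulfurylase, had a log2 fold change of -0.35 (adjusted p 0.36). Among 11 branched-chain genes LEU4, isopropylmalate synthase, rose by 0.89 and BAT1, the mitochondrial aminotransferase, fell by 1.41. LEU4 was called only without SC replicate 3, and BAT1 only without SC replicate 2 or 3, among the fits that left out a library, and neither was called with only the NeoPrep libraries. SER2, of serine synthesis, had 12.5 and 25.8 RPKM in YPEG, against 79.7, 89.3 and 76.2 in SC (log2 -2.15, SE 0.41), and lost its call without YPEG replicate 1. Purine synthesis and one-carbon metabolism had 3 of 20 lower and 1 higher. ADE4, ADE5,7 and ADE6, of the purine pathway, fell by 1.67, 1.11 and 0.88, and GCV3, of glycine cleavage, rose by 1.22. In this list 0 were called without YPEG replicate 1, YPEG replicate 2 or SC replicate 1 or with only the NeoPrep libraries, and 1, a fall, without SC replicate 2.

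The nitrogen use list gave 6 of 21 genes higher and 0 lower. PUT1, proline oxidase, had 407 and 218 RPKM in YPEG, against 15.7, 20.9 and 49.1 in SC (log2 3.48, SE 0.77, adjusted p 0.00822). GDH2, the glutamate dehydrogenase that breaks glutamate down, had 264 and 301 RPKM in YPEG, against 47.6, 56.4 and 90.4 in SC (log2 2.13, SE 0.42). CHA1, serine and threonine deaminase, rose by 1.93, DAL80 by 1.83, GDH3 by 1.46 and PUT2, the next enzyme of proline use, by 1.19. Among 24 permeases 3 rose and 0 fell, beside 6.13% and 4.79% of all ORFs. PUT4, the proline permease, had 78 and 101 RPKM in YPEG, against 7.83, 10.9 and 13.7 in SC (log2 3.06, SE 0.59, adjusted p 0.00311). PTR2, the peptide transporter, had 221 and 241 RPKM in YPEG, against 41.5, 43.6 and 68.5 in SC (log2 2.17, SE 0.46). ALP1, a basic amino acid permease, rose by 1.91 (SE 0.24). Of these 3 permeases, PTR2 lost its call without YPEG replicate 1. The nitrogen list had 1 call without YPEG replicate 1, 4 without YPEG replicate 2, 2 without SC replicate 1, 3 without SC replicate 2 and 3 with only the NeoPrep libraries.

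Oxidant defence had 5 of 29 genes higher and 1 lower, but 3 higher without YPEG replicate 1, SC replicate 1 or SC replicate 2 and with only the NeoPrep libraries. SOD2, the mitochondrial manganese superoxide dismutase, had 1662 and 1346 RPKM in YPEG, against 305, 305 and 657 in SC (log2 1.84, SE 0.47, adjusted p 0.0198), and its call was lost in those 4 fits. YHB1, the nitric oxide oxidoreductase, had 570 and 541 RPKM in YPEG, against 137, 142 and 170 in SC (log2 1.89, SE 0.30). AHP1, a thiol peroxiredoxin, had 716 and 569 RPKM in YPEG, against 4208, 3410 and 3128 in SC, and fell by 2.49 (SE 0.77, adjusted p 0.0458). Among the fits that left out a library, AHP1 was called only in that without SC replicate 3. CTT1, the cytosolic catalase, had 64.3 and 51.5 RPKM in YPEG, against 53.3, 45.1 and 180 in SC, and was not called. TRX1, a thioredoxin, rose by 0.95 (SE 0.20). Of 31 heat shock, trehalose and glycogen genes 0 were called by edgeR and 3 by DESeq2, and 7 were higher at an unadjusted p under 0.05.

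The histone genes gave 2 of 11 higher and 0 lower, beside 6.13% and 4.79% of all ORFs. HHF2, of the histone H4 gene pair, had 2888 and 2786 RPKM in YPEG, against 1374, 1734 and 1499 in SC (log2 0.89, SE 0.20, adjusted p 0.00903). HHT2, its partner for histone H3, had 1752 and 2099 RPKM in YPEG, against 1080, 1102 and 1109 in SC (log2 0.80, SE 0.22, adjusted p 0.027). The other pair lay lower in fold change. HHF1 had 2792 and 3195 RPKM in YPEG, against 2255, 2428 and 2244 in SC (log2 0.37, adjusted p 0.279), and HHT1 had 935 and 795 in YPEG, against 621, 623 and 441 in SC (log2 0.62, adjusted p 0.0848). The windows are 78.7% unique in HHF1 and HHF2 and 87.8% unique in HHT1 and HHT2, so reads may be split between copies. Neither gene was called without YPEG replicate 1 or with only the groups compared. HHT2 also lost its call without YPEG replicate 2, without SC replicate 2 and with only the NeoPrep libraries, while DESeq2 called 4 histone genes.

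Markers of mating type a fell in 2 of 6 cases and all 6 were below SC without overlap. For comparison, 44.9% of all ORFs had no overlap, in either direction. MFA1, an a-factor precursor, had 63.3 and 22.5 RPKM in YPEG, against 626, 494 and 200 in SC (log2 -3.24, SE 0.97, adjusted p 0.0405), from 32, 5, 179, 64 and 37 reads. STE2, the receptor for alpha-factor, had 151 and 137 RPKM in YPEG, against 755, 440 and 309 in SC (log2 -1.83, SE 0.47, adjusted p 0.0196). SST2, which damps pheromone signalling, had 19.8 and 21.7 RPKM in YPEG, against 114, 98 and 66.1 in SC (log2 -2.18, SE 0.38). In each of these genes SC replicate 3 was the SC library nearest to YPEG. The pheromone response element TGAAACA was found before all 6 marker genes and before 715 of 5944 ORFs. Of 4 MATalpha markers MF(ALPHA)2 fell by 1.07, and of 10 meiotic markers 0 were called by edgeR, 1 by DESeq2, and 3 had an unadjusted p under 0.05. The MATa count was 0 without YPEG replicate 1, YPEG replicate 2 or SC replicate 1 and with only the NeoPrep libraries, 4 with DESeq2, 1 without SC replicate 2 and 5 without SC replicate 3, and MF(ALPHA)2 lost its call whichever library was left out.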

How the data were processed

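Poly(A)+ RNA was sequenced as single-end reads, and strand was not used, per the labels' protocols. The authors deposited whole-number read counts and RPKM values per ORF. The deposited RPKM equalled counts per kilobase, scaled to counted reads, within a relative difference of 3.8e-09. TopHat2 2.0.9 and build R64 (sacCer3) are named, without roles, in the submitters' processing notes; the counter is not given in the sources used here. ORF starts printed are the authors', and 5375 of 5377 equalled those of RefSeq R64.

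Counts of 26 libraries in 12 replicated groups were fitted with edgeR 4.0.16 in R 4.3.3 (quasi-likelihood test, TMM scaling, 1 mean per group). A mean RPKM of 1 or more kept 6592 ORFs, over which Benjamini-Hochberg adjustment was made. Each SE divides the absolute log2 fold change by the square root of F. The common biological coefficient of variation was 29.5%. The script was tested on simulated counts. Alternatives were DESeq2 1.42.0, limma 3.58.1 on log2(RPKM + 1), other scalings and filters, fewer libraries, and a replicate block. Uniqueness is the share of an ORF's 50-nt windows found once in R64.

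The members and gene lists were chosen with earlier results of these data known. Named genes were the 12 largest called rises and falls without overlap, at 20 RPKM or more in the higher group, up to 6 of the largest calls in each list with up to 3 of opposite direction, and a set named whatever its values, of genes for copper and iron use, respiration, fermentation, histones and amino acid synthesis.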

Additional observations from a re-analysis of the deposited data

Results flagged for a closer look

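HXT5 responded in opposite directions in the 2 strains. It rose in H3H113N-YPEG (log2 1.28) and fell in WT-YPEG (log2 -1.03), each relative to SC, and the interaction test of edgeR gave a difference of 2.31 (adjusted p 0.00783). The range of the difference over all alternatives was 1.94 to 2.59, in the same direction each time. Its call was lost with limma (adjusted p 0.0756), with only the NeoPrep libraries (adjusted p 0.521), with only the groups compared (adjusted p 0.999), with the replicate block (2.24, adjusted p 0.0558) and without H3H113N-YPEG replicate 1, WT-YPEG replicate 1 or WT-YPEG replicate 2. HXT5 starts at 294669 on chromosome VIII, near HXT1 at 290913, and 96.0% of its 50-nt windows are unique. The cause was not tested.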

How the results depend on the processing

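The count of 720 ORFs called was 1090 with DESeq2 and 298 with only the NeoPrep libraries (228 higher, 70 lower), and ranged from 121 to 854 when each library was left out. All other settings gave 554 to 768. Across the media the replicate numbers give 2 pairs in H3H113N. Deviations of the same-numbered YPEG and SC libraries correlated at -0.014 and 0.352, and no pairing was shown. Within a medium, some shifts were shared by same-numbered libraries of both strains. Ribosome biogenesis took 0.339% of reads in WT-SC replicate 3 and 0.512% in H3H113N-SC replicate 3, against at least 1.227% in the other SC libraries of both strains. Other lists were not compared in this way. No fit paired the strains by replicate number within a medium, and a batch was not tested. With the replicate block 768 ORFs were called in H3H113N and 0 for the difference between strains. That difference was called in 1 ORF, and in 0 with limma, with only the NeoPrep libraries and with only the groups compared, and in 0 to 2 when each library was left out. The median difference of all ORFs was -0.009, but -0.21 with library totals only and -0.218 with limma.

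Among 171 results for named genes, 2570 comparisons with an alternative gave 2176 in the same direction and on the same side of the threshold, 374 that lost the threshold, 9 that gained it and 11 that turned sign. The turns were in 4 uncalled genes: CCS1 (-0.009 with each chromosome centred, and -0.127 to 0.204 over the libraries left out, with -0.032 when SC replicate 1 and -0.087 when SC replicate 2 was missing), CTT1 (0.228 with the replicate block, -1.031 to 0.217 over the libraries left out), CYC7 (0.802 with the block, -1.245 to 0.742 over the libraries) and INO1 (0.405 with limma, 1.521 with the block, -0.938 to 1.529 over the libraries). The turns of CTT1, CYC7 and INO1 came without H3H113N-SC replicate 3. Of 151 named and called genes, 54 kept their call whichever library was left out, and 94 lost it without H3H113N-YPEG replicate 1. The smaller YPEG library held 2000506 reads and the shallowest SC library 1168159, and how detection depends on depth was not tested.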

Other observations

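Ergosterol and oxygen-regulated genes were mixed, with 4 of 31 higher and 3 lower in H3H113N-YPEG, beside 6.13% and 4.79% of all ORFs. PET9 and AAC1, which encode ADP/ATP carriers of the mitochondrion, had log2 fold changes of 1.98 and 1.76. AAC3, the carrier form known for expression without oxygen, had 4.99 and 7.57 RPKM in YPEG, against 16.8, 17.6 and 22.1 in SC, and fell by 1.63 (SE 0.43, edgeR adjusted p 0.0231). ROX1, the repressor of hypoxic genes, had 214 and 168 RPKM in YPEG, against 89, 66.5 and 52.6 in SC (log2 1.44, SE 0.39). TIR3, a cell wall mannoprotein, rose by 1.21, and ERG2 and HMG1, of ergosterol synthesis, fell by 0.96 and 0.80. The list had 0 calls without H3H113N-YPEG replicate 1, 1 without H3H113N-YPEG replicate 2 or H3H113N-SC replicate 2, 4 without H3H113N-SC replicate 1, and 2 with only the NeoPrep libraries.

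Vitamin genes gave 6 of 35 higher and 1 lower, beside 6.13% and 4.79% of all ORFs. BNA2, the first enzyme of NAD synthesis from tryptophan, had 136 and 136 RPKM in YPEG, against 32.2, 44.6 and 46.3 in SC (log2 1.74, SE 0.30, edgeR adjusted p 0.00133), and overlaps another annotated gene. TNA1, the nicotinic acid permease, rose by 0.97. SNZ2, SNZ3, SNO2 and SNO3, of pyridoxine synthesis, rose by 1.74, 1.57, 1.13 and 1.41, but their windows are 22.9% (SNZ) and 13.5% (SNO) unique. THI3 fell by 0.76. INO1, of inositol synthesis, had 172 and 226 RPKM in YPEG, against 62.3, 75.3 and 691 in SC, with SC replicate 3 alone above YPEG. The vitamin list had 1 call without H3H113N-YPEG replicate 1 and 4 without H3H113N-SC replicate 2.

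Among the largest changes outside the lists, DPA10 had 708 and 222 RPKM in YPEG, against 8.82, 13 and 4.55 in SC (log2 5.77, SE 0.75), from 852, 117, 6, 4 and 2 reads. ARI1, an aldehyde reductase, had 13.2 and 19.2 RPKM in YPEG, against 229, 239 and 201 in SC (log2 -3.81, SE 0.28, edgeR adjusted p 1.51e-07). UTR2, a cell wall transglycosylase on chromosome V, had 39.9 and 70.1 RPKM in YPEG, against 299, 274 and 334 in SC (log2 -2.48, SE 0.56). SWD3, a subunit of the histone H3 methyltransferase COMPASS, had 7.64 and 23.2 RPKM in YPEG, against 50.4, 81.3 and 58.3 in SC (log2 -2.10, SE 0.37). Neither UTR2 nor SWD3 was called without YPEG replicate 1. INA1 had 17.5 and 29.3 RPKM in YPEG, against 175, 169 and 60.1 in SC (log2 -2.55, SE 0.75), and among the fits that left out a library was called only without SC replicate 3. FIT3 was the fifth most abundant transcript of H3H113N-YPEG by mean RPKM, at 6448, against 91.1 in H3H113N-SC, and CCW12, a cell wall mannoprotein, was the first in both media, at 18736 in H3H113N-YPEG and 21334 in H3H113N-SC.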
